A study of Arabidopsis thaliana with 4 samples.

Results

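Transcripts of 6 nuclear genes of photosynthesis were followed in rosette leaves of wild-type Arabidopsis thaliana, accession Col-0. They were LHCB4.1, LHCB4.3 and the light-harvesting-like LIL3:1, grouped here as antenna genes, and the Calvin cycle genes RCA, SBPASE and PRK. Members were found by gene symbol in the platform annotation. Each of the 6 had a single probe set that the annotation gives to that gene alone, so the 6 genes are 6 of 13350 genes named by such probe sets. Plants were 3 weeks old and had grown on soil at 23°C with 8 h of darkness a day and 16 h of light at an intensity of 100 µmol/m2/s. Leaves were cut off 4 h into the light period and floated for 1 h on plain water, called mock, or on 0.1 mM FAD. FAD, flavin adenine dinucleotide, is the bound cofactor of many enzymes that move electrons, among them the chloroplast reductase that makes NADPH from reduced ferredoxin. Each treatment had 2 replicates, which the submitters call biological but do not tie to separate plants, and each was measured on 1 Affymetrix array, 4 arrays in all. Both groups were detached, wetted leaves, and intact or untreated leaves were not analysed here.

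Antenna proteins bind chlorophyll in the thylakoid membrane and pass the absorbed energy to the photosystems. The Calvin cycle then uses ATP and NADPH from the light reactions to fix CO2 in the stroma. These proteins are encoded in the nucleus, made in the cytosol and imported into the chloroplast, and their transcripts are abundant in leaf mesophyll in the light. In RNA from whole leaves, fewer cells of a type and less RNA per cell cannot be told apart.

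LHCB4.1 (AT5G01530, probe set 251082_at) encodes a form of CP29, a minor antenna protein that links the trimeric antenna to the core of photosystem II. LHCB4.3 (AT2G40100, probe set 265722_at) encodes a further form of CP29, known from plants kept in strong light and also called LHCB8. LIL3:1 (AT4G17600, probe set 245354_at) encodes a light-harvesting-like protein that anchors and stabilises geranylgeranyl reductase, the enzyme that completes the phytol tail of chlorophyll. RCA (AT2G39730, probe set 245061_at) encodes Rubisco activase, which frees Rubisco from inhibiting sugar phosphates. SBPASE (AT3G55800, probe set 251762_at) encodes sedoheptulose-1,7-bisphosphatase of the regenerating arm of the cycle. PRK (AT1G32060, probe set 255720_at) encodes phosphoribulokinase, which makes the CO2 acceptor ribulose-1,5-bisphosphate. The reference annotation lists 3 transcripts for RCA, 2 for LHCB4.3 and 1 for each of the other genes. Which transcripts a probe set reads was not analysed here.

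Values are the authors' linear signals, which had been scaled so that the mean of each array, trimmed by 2% at each end, was 500.1. Of 22746 probe sets besides the controls, 13648 passed a filter on dim signals, and all 6 genes were among them. The hybridization spike-ins bioB, bioC, bioD and cre, bacterial and phage RNAs that are added to every array in fixed amounts, are read by a first and a second set of 9 probe sets each. For the first set, the mean of the other arrays exceeded FAD replicate 2 by a factor whose median was 5.43, and the second set showed no such gap. Few markers of cell types could be followed: 1 of 3 for guard cells (FMA), 1 of 3 for phloem (SWEET11), 2 of 3 for root (EXPA7 and PYK10), 1 of 2 for dividing cells (HTR12) and 0 of 3 for epidermis. EXPA7, of root hairs, gave signals of 6 to 53.3 and HTR12 of 21.1 to 54.8, and neither passed the filter. PYK10, a beta-glucosidase gene best known from roots, ranged from 400.3 on mock replicate 2 to 1771 on FAD replicate 2. The guard cell gene FMA read 137.1 and 133.3 on the mock arrays and 160.3 and 255.9 on the FAD arrays. For FMA, EXPA7 and HTR12 both FAD signals were above both mock signals, and for PYK10 and SWEET11 the groups overlapped. Of all probe sets that passed the filter, 22.0% had both FAD signals above both mock signals. That share covers FMA but not EXPA7 and HTR12, and the share among dimmer probe sets is not given here. The part of these cell types in the results was not tested.

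In mock leaves LHCB4.1 gave signals of 34490 on replicate 1 and 40233 on replicate 2, which were the 17th and 11th highest of the array. The mock mean was 37361 ± 4061 (SD, n = 2). In FAD leaves it gave 40988 and 44107, the 12th and 14th highest. Both FAD signals thus lay above both mock signals, but FAD replicate 1 exceeded mock replicate 2 by less than the mock arrays differed from each other. The ratio of geometric means, FAD over mock, was 1.14, with a 95% confidence interval from 0.894 to 1.46. On the log2 scale this was 0.19 ± 0.15 (SE, limma, Benjamini-Hochberg adjusted p = 0.839). Under quantile normalization, which gives every array the same distribution of signals, the log2 difference was 0.022. With each array centred on its median it was 0.10. Under cyclic loess normalization, which evens out differences between arrays that depend on signal level, it was 0.18.

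LHCB4.3 gave 586.0 and 638.8 in mock leaves (612.4 ± 37.3, SD, n = 2), ranks 5212 and 4744 on their arrays. It gave 548.1 and 696.0 in FAD leaves. The FAD arrays bracketed both mock arrays, so the groups overlapped fully. The ratio of FAD over mock was 1.01, with a 95% interval from 0.733 to 1.39 (limma, adjusted p = 0.995). This probe set had the widest interval of the 6.

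LIL3:1 gave 3325 and 3636 in mock leaves (3481 ± 220.2, SD, n = 2), ranks 1107 and 1027. The FAD signals were 3913 on replicate 1 and 3366 on replicate 2. FAD replicate 1 was the highest of the 4 arrays, while FAD replicate 2 lay between the mock arrays. The ratio of FAD over mock was 1.04, with a 95% interval from 0.802 to 1.36 (limma, adjusted p = 0.965). Within replicate 1 the log2 difference of FAD and mock was 0.23, and within replicate 2 it was -0.11. With 1 array for each treatment and number, the difference between these values was not tested.

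**Figure D1:**
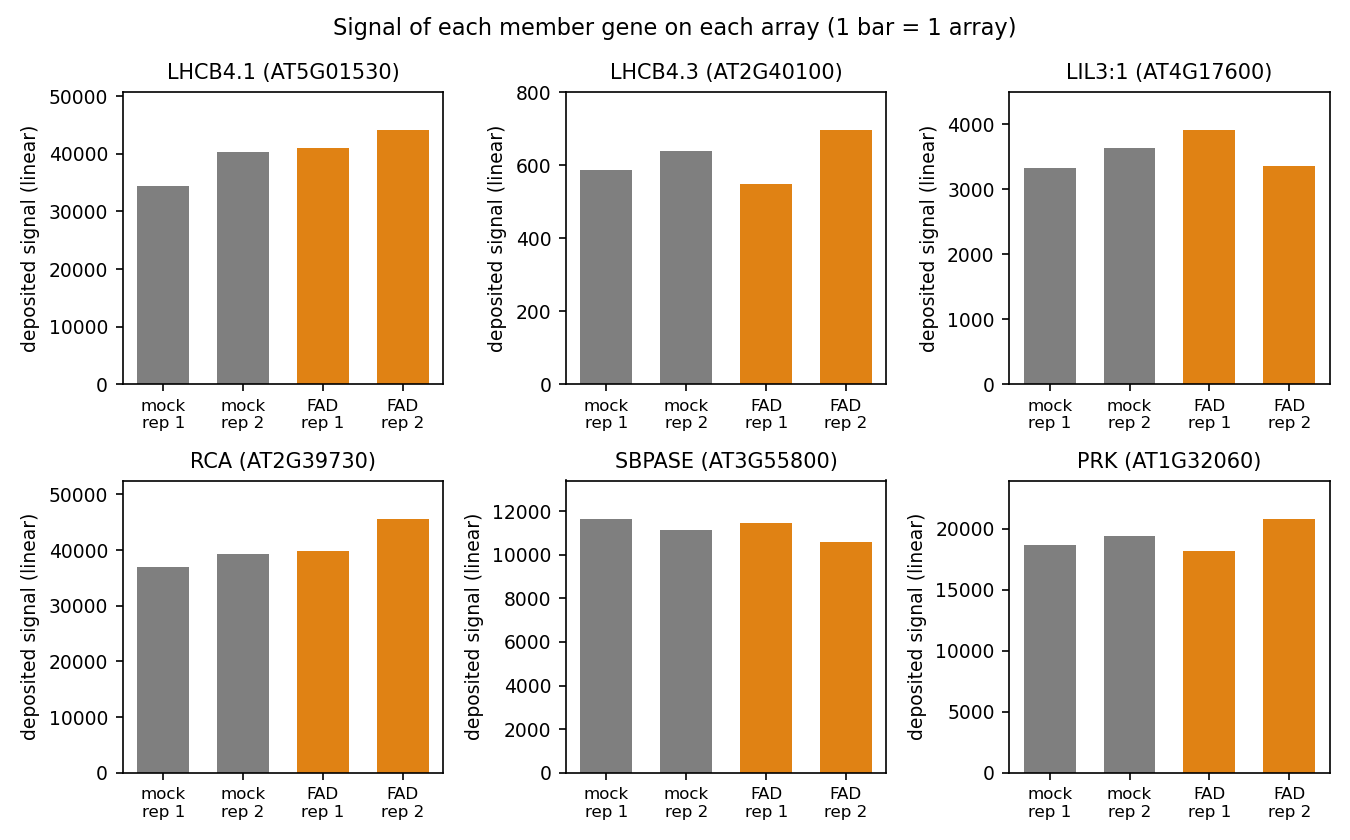
Deposited linear signal (vertical axis, from 0, a scale of its own in each panel) of the 6 genes on the 4 arrays, with 1 bar for each array, grey for mock and orange for FAD. The highest signal of a gene exceeded its lowest by a factor between 1.1 (SBPASE) and 1.28 (LHCB4.1), and the FAD bars stand above both mock bars for LHCB4.1 and RCA.

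Rubisco activase transcripts gave signals close to the top of each array. RCA read 36925 and 39387 in mock leaves (38156 ± 1741, SD, n = 2), the 14th and 16th highest. FAD leaves gave 39927 and 45662, the 14th and 9th highest. Both FAD signals lay above both mock signals, by a narrow margin for FAD replicate 1. The ratio of FAD over mock was 1.12, with a 95% interval from 0.882 to 1.42. The log2 difference was 0.16 ± 0.15 (SE, limma, adjusted p = 0.865), and it was 0.053 under quantile normalization. With each array centred on its median it was 0.073, and under cyclic loess normalization 0.15.

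SBPASE gave 11654 and 11126 in mock leaves (11390 ± 373.5, SD, n = 2), ranks 225 and 263. It gave 11467 and 10600 in FAD leaves, and FAD replicate 1 lay between the mock arrays. The ratio of FAD over mock was 0.968, with a 95% interval from 0.765 to 1.23 (limma, adjusted p = 0.968). SBPASE had the smallest spread over the 4 arrays among the 6 genes.

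PRK gave 18664 and 19379 in mock leaves (19022 ± 505.7, SD, n = 2), ranks 92 and 97. FAD leaves gave 18170 and 20833, the lowest and the highest of the 4 arrays, so the groups overlapped. The ratio of FAD over mock was 1.02, with a 95% interval from 0.804 to 1.3 (limma, adjusted p = 0.980).

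Ranks place a signal on its array. They do not order the genes by transcript amount, because probe sets differ in how strongly they bind. The ratio of the highest to the lowest signal had a median of 1.21 over the 6 genes, against 1.42 over all tested probe sets and 1.26 over the 500 brightest. Whether signals as close to the top of the array as those of LHCB4.1 and RCA are compressed was not tested. Detection calls were not analysed here.

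For FAD against mock, limma called 0 of the 6 genes, where it called 0.0366% of all tested probe sets, 5 of 13648. That count depended on the fit: it was 36 higher and 153 lower with the replicate number as a block, 0 without the mean-variance trend and 1 to 4 lower with 1 array left out, and none of the 6 genes was called in these fits. None of the 6 genes had an unadjusted p under 0.05 either, and 6.87% of all tested probe sets did. The smallest unadjusted p of the 6 was 0.244, for LHCB4.1. These intervals leave room for changes of modest size: the highest upper limit was a ratio of 1.46, for LHCB4.1, and the lowest lower limit was 0.733, for LHCB4.3. The FAD and mock arrays did not overlap for 2 of the 6 genes, LHCB4.1 and RCA, and for 37.0% of all tested probe sets. Both FAD arrays lay above both mock arrays for these 2 genes and for 22.0% of all tested probe sets, and below them for 0 of the 6 and for 15.0% of all. They lay above for 33 of the 100 brightest tested probe sets. With 2 arrays a side the smallest two-sided p of an exact permutation test is 0.333, so no such test was run. The median log2 difference was 0.047 over the 6 genes and 0.050 over all tested probe sets. The difference was positive for 79 of the 100 brightest tested probe sets, which include LHCB4.1, RCA and PRK. It was positive for 5 of the 6 genes and 57.5% of all tested probe sets. Under quantile normalization these were 3 and 52.9%, and with each array centred on its median 2 and 43.8%. Under cyclic loess normalization, which evens out differences between arrays that depend on signal level, they were 4 and 51.9%.

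**Figure D2:**
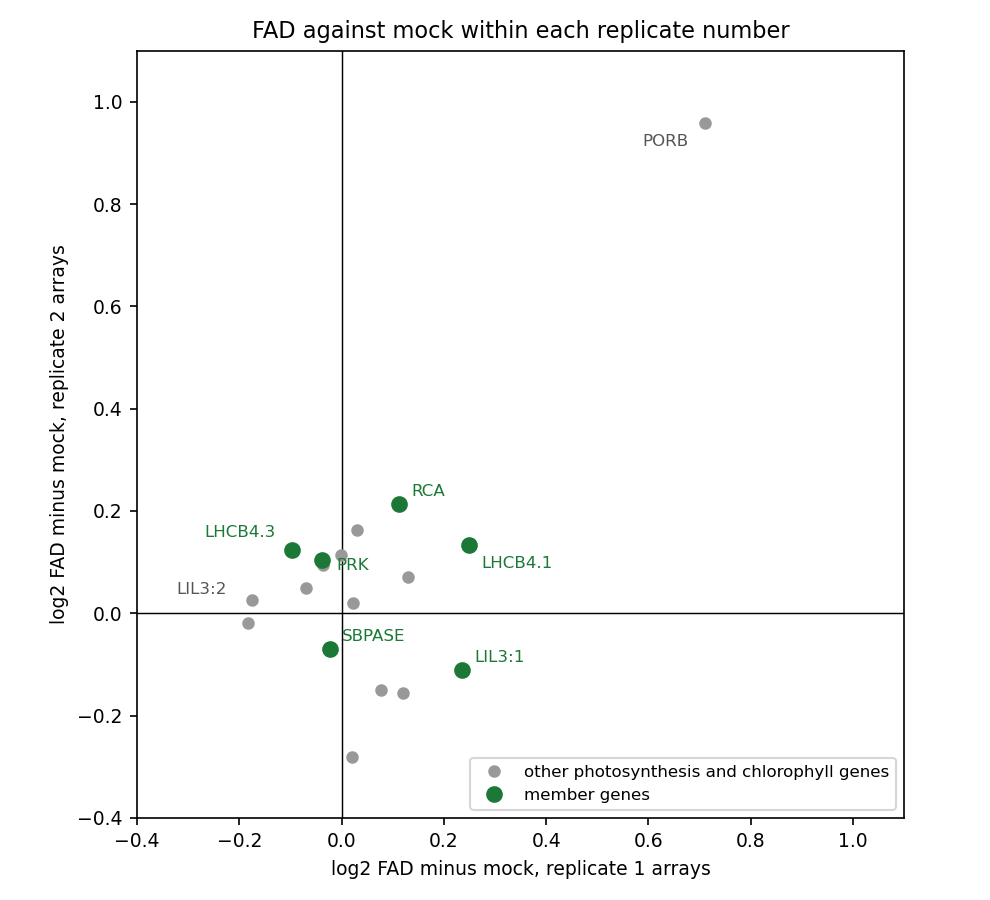
Log2 difference of FAD and mock on the replicate 1 arrays (horizontal axis) and on the replicate 2 arrays (vertical axis), for the 6 genes in green and for 12 other photosynthesis and chlorophyll genes in grey. LHCB4.1 and RCA are positive on both axes and SBPASE negative on both, LHCB4.3, PRK and LIL3:1 have opposite signs, and PORB stands apart at 0.71 and 0.96.

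The FAD difference had the same sign in both replicates for 3 of the genes. For LHCB4.1 it was 0.25 in replicate 1 and 0.13 in replicate 2, for RCA 0.11 and 0.21, and for SBPASE -0.023 and -0.070. For LHCB4.3 it was -0.096 and 0.12, and for PRK -0.039 and 0.10. The antenna genes and the Calvin cycle genes did not separate in this respect: each group held a gene whose FAD arrays lay above mock and genes whose arrays overlapped.

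The second comparison set the arrays numbered replicate 2 against those numbered replicate 1. The titles give these numbers without saying what same-numbered samples share. limma with the number as the only term called 0 of the 6 genes and 0% of all tested probe sets, and 8.10% of all tested probe sets had an unadjusted p under 0.05. With the treatment as a further term it called 96 probe sets higher and 98 lower, and without FAD replicate 2 it called 8 and 31, again with none of the 6 genes. At an unadjusted p under 0.05 with the number alone, none of the 6 genes was among those found, and the smallest unadjusted p was 0.227, for LHCB4.1.

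LHCB4.3 had the highest replicate difference of the 6, with a ratio of replicate 2 over replicate 1 of 1.18 and a 95% interval from 0.881 to 1.57 (limma, adjusted p = 0.788). Both replicate 2 arrays lay above both replicate 1 arrays. The log2 difference was 0.12 in mock leaves and 0.34 in FAD leaves, so the FAD pair differed more. PRK had a ratio of 1.09, with an interval from 0.906 to 1.31 (limma, adjusted p = 0.835), and its replicate 2 arrays were also above its replicate 1 arrays. SBPASE went the other way, with a ratio of 0.939 and an interval from 0.772 to 1.14 (limma, adjusted p = 0.896), and its replicate 2 arrays were below. The replicate sets thus did not overlap for 3 of the 6 genes, against 38.9% of all tested probe sets. Replicate 2 lay above for 2 of the 6 and for 16.3% of all tested probe sets, and below for 1 of the 6 and for 22.5%.

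For the other 3 genes the replicate sets overlapped. The ratio of replicate 2 over replicate 1 was 1.12 for LHCB4.1, with a 95% interval from 0.916 to 1.37 (limma, adjusted p = 0.788). For RCA it was 1.1, with an interval from 0.912 to 1.34 (limma, adjusted p = 0.809). LIL3:1 had 0.970, with an interval from 0.756 to 1.24 (limma, adjusted p = 0.967), made up of a log2 difference of 0.13 between mock arrays and -0.22 between FAD arrays. The phloem sugar exporter gene SWEET11 read 6029 and 4438 on the mock and 6852 and 3787 on the FAD arrays, lower on both replicate 2 arrays (log2 difference -0.65 ± 0.15, SE, limma, adjusted p = 0.398). Its part in the values of the 6 genes was not tested.

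The replicate difference depended on signal level. In 20 bins of tested probe sets ordered by level, its median was -0.11 in the dimmest bin and 0.089 in the brightest. Among the 100 brightest tested probe sets, which include LHCB4.1, RCA and PRK, it was positive for 90, with a median of 0.13. The 9 second-set spike-in probe sets had a median replicate difference of 0.13 as well. LHCB4.1 had 0.16, RCA 0.14 and PRK 0.13. Under cyclic loess normalization, added after the data were seen, these 3 values were -0.018, -0.040 and -0.016, while LHCB4.3 had 0.29 and SBPASE -0.20. Of the 100 brightest tested probe sets 32 were positive under this normalization, with a median of -0.041. It evens out differences that depend on signal level by design, so a fall among bright probe sets cannot tell the cause. The part of signal level in the values of LHCB4.1, RCA and PRK was not tested.

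The 2 sets of spike-in probe sets disagreed most on FAD replicate 2, where the first set read far below the other arrays. The 3' probe set for cre in the second set read 37891 and 41325 on the mock arrays. On the FAD arrays it read 45121 and 49753, and the log2 difference was 0.26. The first-set 3' probe set for the same RNA read 26525 and 25132 on the mock arrays and 22842 and 7784 on the FAD arrays, which gave a log2 difference of -0.95. The arrays stand in the same order, from mock replicate 1 through mock replicate 2 and FAD replicate 1 to FAD replicate 2, for the second-set cre probe set, for LHCB4.1 and for RCA. Over the 9 second-set probe sets the FAD difference ran from -0.081 to 0.26, with a median of 0.10, and over the 100 brightest tested probe sets its median was 0.094. The part of the second-set shift in the values of LHCB4.1 and RCA was not tested. The signal of a 3' probe set over that of the 5' probe set is a measure of RNA integrity. For actin by the second set it was 5.42 and 5.56 for mock, and 4.70 and 5.34 for FAD. The first set gave 31.0 and 33.0 for mock, and 23.6 and 27.5 for FAD. For GAPDH the second set gave 1.25 and 1.34 for mock, and 1.28 and 0.945 for FAD. First-set GAPDH gave 3.12 and 3.65 for mock, and 3.12 and 3.53 for FAD. These ratios differed widely between genes and sets, and their part was not tested.

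**Figure D3:**
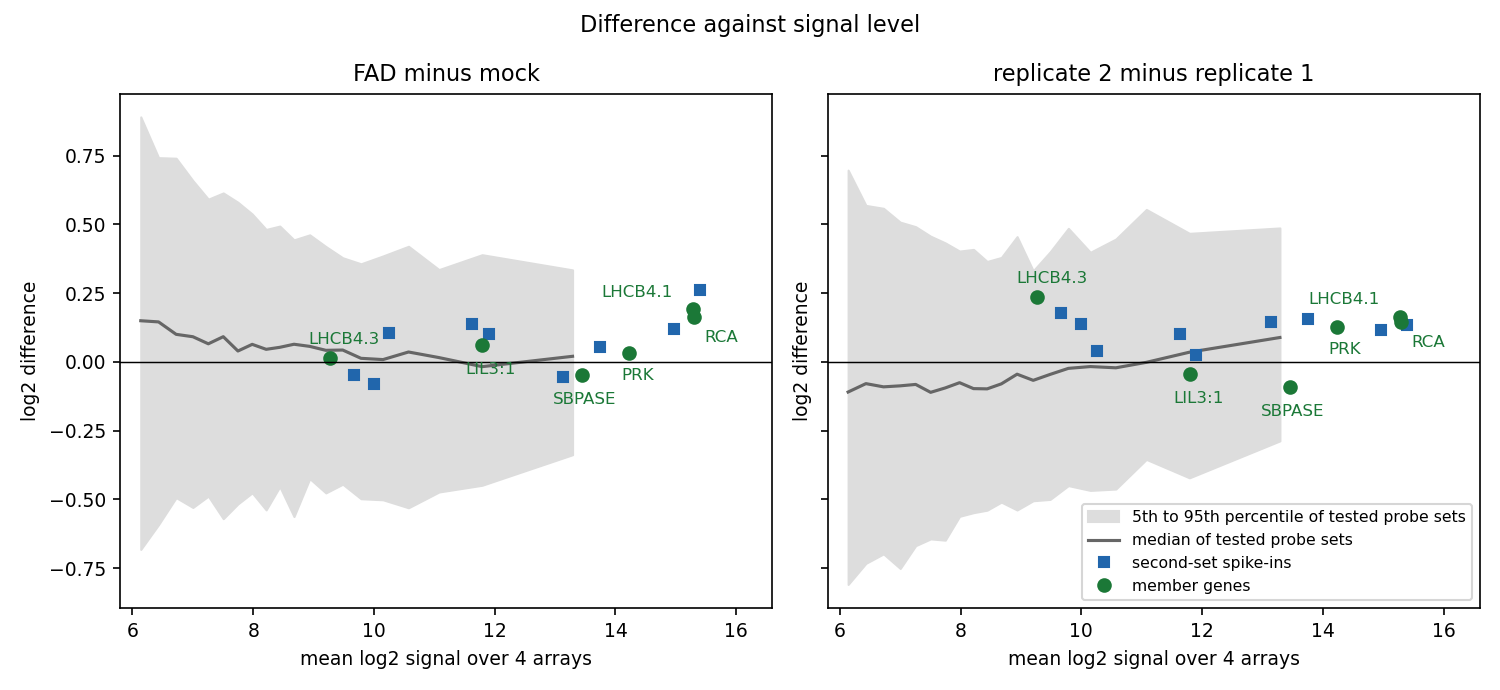
Log2 difference (vertical axis) against the mean log2 signal over the 4 arrays (horizontal axis), for FAD minus mock on the left and replicate 2 minus replicate 1 on the right; the line and band give the median and the 5th to 95th percentiles of tested probe sets in 20 level bins. The 6 genes (green circles) and the 9 second-set spike-in probe sets (blue squares) lie between -0.047 and 0.19 and between -0.081 and 0.26 on the left, and on the right the median rises from -0.11 in the dimmest to 0.089 in the brightest bin.

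Other genes of the same pathways gave a wider view, although few could be followed. Lists of light harvesting, Calvin cycle, nuclear photosystem subunits, electron transport and ATP synthase, chlorophyll synthesis, and antenna kinases and import held 97 further genes, 12 of them with a named probe set that was tested. limma called 0 of the 12 for FAD against mock, and 1 had an unadjusted p under 0.05, where 6.87% of all tested probe sets did. Of the 12, 6 had positive and 6 negative differences, with a median of 0.0054. The FAD and mock arrays did not overlap for 2 of the 12, PORB and PSAE-1, both with FAD above mock. Of all tested probe sets 37.0% did not overlap, and 22.0% had FAD above mock.

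The closest relatives of the antenna genes were among them. LHCB4.2, which encodes another form of CP29, read 23219 and 28321 on the mock arrays and 25410 and 29752 on the FAD arrays. These groups overlapped, with a log2 difference of 0.10 (95% interval from -0.29 to 0.49, limma, adjusted p = 0.939). LIL3:2, the paralogue of LIL3:1, read 3320 and 3557 on the mock arrays and 2940 and 3620 on the FAD arrays. FAD replicate 1, where LIL3:1 was highest, was the lowest array for LIL3:2, and its log2 difference was -0.075 (95% interval from -0.47 to 0.33, limma, adjusted p = 0.957). AT1G74470, which encodes the geranylgeranyl reductase that LIL3 proteins anchor, had a log2 difference of 0.056 (limma, adjusted p = 0.965). In the Calvin cycle list, AT1G56190 had 0.030 (limma, adjusted p = 0.984).

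PORB encodes a protochlorophyllide oxidoreductase, the enzyme that reduces protochlorophyllide in the light. It read 2688 and 1617 on the mock arrays, and 4400 and 3142 on the FAD arrays, which thus lay above both mock arrays. The log2 difference was 0.83 ± 0.27 (SE, limma, unadjusted p = 0.0173, adjusted p = 0.582), so it did not pass the correction. The mock arrays differed from each other by more than mock replicate 1 did from FAD replicate 2. CHLM, the magnesium-protoporphyrin methyltransferase of the same pathway, had -0.13 (limma, adjusted p = 0.919).

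Subunits of the photosystems gave small FAD differences. The photosystem II subunit genes PSBW and PSBY had 0.020 and -0.10, and the assembly factor gene PSB27 had -0.018. The photosystem I subunit genes PSAE-1 and PSAN had 0.097 and -0.0097. ATPC1, the gamma subunit of the chloroplast ATP synthase, had -0.037. Adjusted p-values of these 6 genes in limma lay between 0.923 and 0.997.

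**Figure D4:**
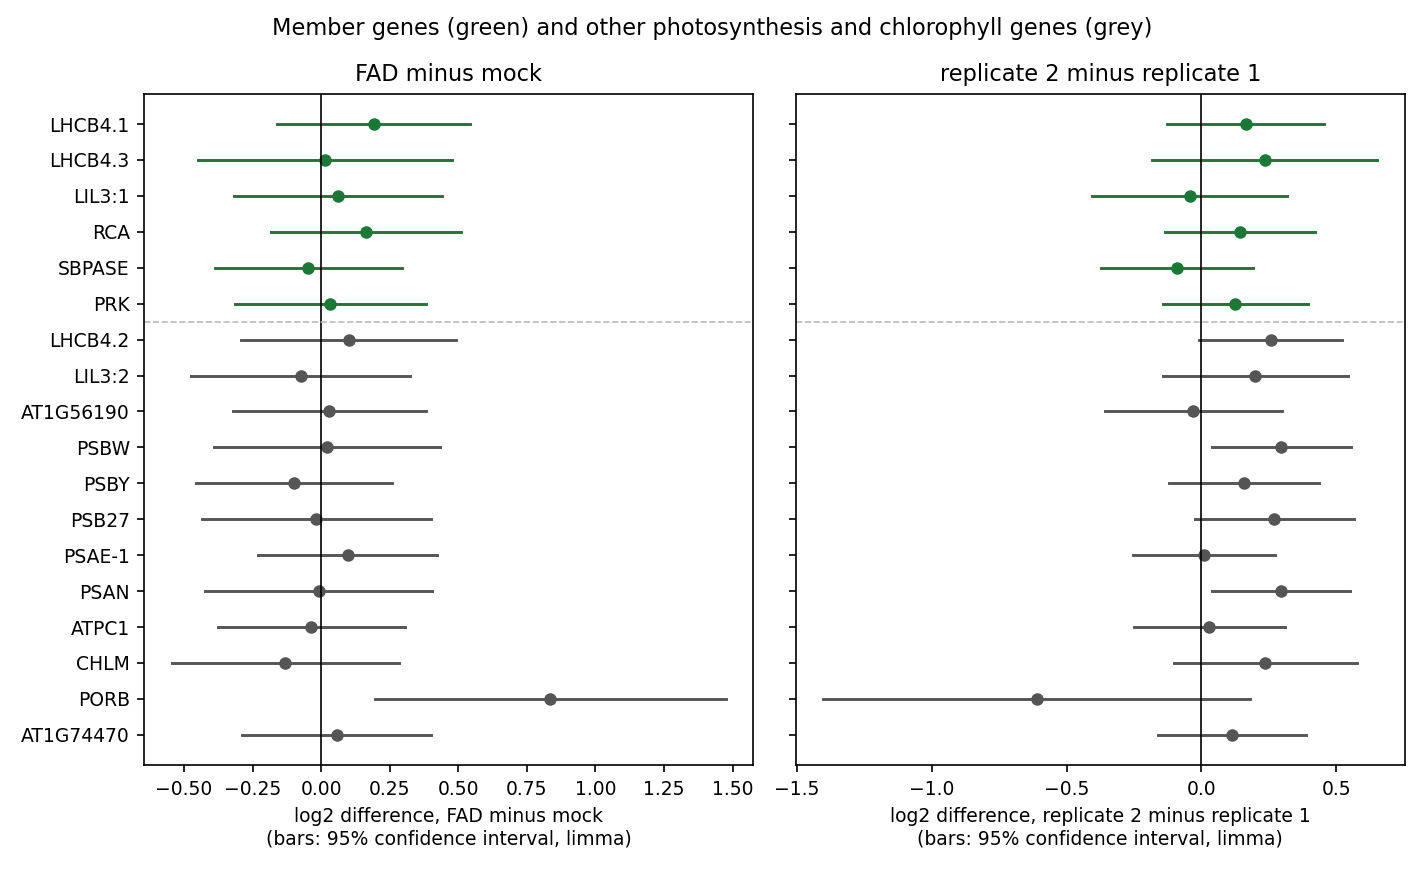
Log2 differences with 95% confidence intervals from limma (horizontal axes) for the 6 genes in green and the 12 other genes in grey, FAD minus mock on the left and replicate 2 minus replicate 1 on the right. All 6 green intervals cross 0 in both panels, and PORB on the left and PSBW and PSAN on the right are the genes whose interval excludes 0 before correction for multiple tests.

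Between replicates, 10 of the 12 other genes had positive differences, where 42.5% of all tested probe sets and 90 of the 100 brightest did. The median was 0.18, against 0.13 for the 6 genes and -0.047 for all tested probe sets. limma called 0 of the 12, and 2 had an unadjusted p under 0.05: PSBW at 0.30 ± 0.11 and PSAN at 0.29 ± 0.11 (SE, limma, adjusted p = 0.570 for both). Of all tested probe sets 8.10% had an unadjusted p under 0.05. LHCB4.2 had 0.26, PSB27 0.27, CHLM 0.24 and LIL3:2 0.20, with replicate 2 above replicate 1 on all arrays of each. Both replicate 2 arrays lay above both replicate 1 arrays for 8 of the 12 in all. The same held for 16.3% of all tested probe sets and for 51 of the 100 brightest. They lay below for 0 of the 12 and for 22.5% of all tested probe sets. PORB had -0.61 and AT1G56190 -0.029. Of the 12, 8 were positive under quantile normalization, where 49.0% of all tested probe sets were. With each array centred on its median 11 were, against 55.7% of all, and under cyclic loess normalization 7 were, against 48.6% of all.

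Over the 4 arrays some pairs of the 6 genes were alike, but the 6 did not all share the same pattern. Likeness was measured as the root mean square difference of log2 signals after each gene was centred on its own mean, so that 0 stands for the same pattern. LHCB4.1 and RCA differed by 0.057 and LHCB4.3 and PRK by 0.058, the closest pairs. RCA and PRK differed by 0.067, LHCB4.3 and RCA by 0.092, and LIL3:1 and SBPASE by 0.095. All remaining pairs differed by more than 0.1. LHCB4.3 and LIL3:1, both grouped here as antenna genes, were the least alike at 0.20. By the same measure, over 7343 probe sets of other single genes, the nearest to LHCB4.1 were AT2G25430 at 0.019 and AT5G63410 at 0.019. The nearest to LHCB4.3 were 2A6 at 0.0017 and AT1G60690 at 0.0090, and those to LIL3:1 were AT1G75900 and AT2G20690 at 0.018 each. AT2G43540 at 0.014 and the plastid-encoded photosystem I gene psaI at 0.015 were nearest to RCA. AT5G15200 at 0.0059 and AT4G10050 at 0.013 were nearest to SBPASE. PRK was nearest to AT1G52220, which encodes the thylakoid protein CURT1C, at 0.0069 and to AT4G29590 at 0.012. Near patterns were common, since between 6.77% and 12.2% of the probe sets lay within 0.1 of a given one of the 6 genes. These are descriptions over 4 arrays.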

How the data were processed

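Per the labels' protocols, total RNA of each sample went through double-stranded cDNA to RNA carrying biotin, made with an Affymetrix kit for 3' labelling. The authors deposited an intensity on a linear scale for each probe set of each array, made with GCOS per the submitters' processing notes. Its version, its algorithm and a genome build were not given in the sources used here, so no coordinates are printed. Trimmed means of the arrays differed by 0.000764%, under the 5% that would have called for quantile normalization, so the authors' scaling was kept. Such scaling cannot show a change in total mRNA.

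The 64 control probe sets were set aside, intensities were log2 transformed, and probe sets whose mean log2 signal reached the 40th percentile, 63.6 as a geometric mean, were tested. limma 3.58.1 in R 4.3.3 (lmFit, eBayes with a mean-variance trend) was fitted to all 4 arrays with 1 term, the treatment or the replicate number. Degrees of freedom were 2 residual and, with the treatment as the term, 5.43 prior. Benjamini-Hochberg adjustment ran over all 13648 tested probe sets, with a threshold of 0.05. The submitters call the replicates biological but do not say that they came from separate plants, so p-values cover only the spread between samples, which may be technical. The number of arrays limits the precision. The fit was tested on simulated data.

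Genes were named from the platform annotation, and gene IDs were matched to current symbols in the TAIR10.1 table. Named were the 6 genes, up to 3 tested genes of each pathway list for either comparison by absolute moderated t, and the 2 probe sets most like each of the 6. Lists used 1 probe set a gene, that with the highest mean. The 6 genes and the lists were chosen with earlier results of these data known. Alternatives were quantile, median and cyclic loess scaling, no filter, a stricter filter (60th percentile), no trend, a constant of 32 added to each signal, the replicate number as a block and leaving out each array.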

Additional observations from a re-analysis of the deposited data

Results flagged for a closer look

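Some probe sets for spike-in RNAs, which took no part in the comparisons, read higher on the FAD arrays than on the mock control arrays. Of the 9 second-set spike-in probe sets 5 had both FAD arrays above both mock arrays. The log2 difference of the brightest, the 3' probe set for cre, was 0.26. Of the other 4 second-set probe sets, whose groups overlapped, 3 had negative differences. All 9 first-set probe sets, which read the same RNAs, had negative differences, from -1.38 to -0.95, with FAD replicate 2 far below the other arrays. The probe sets read only 4 RNAs and are not independent.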

How the results depend on the processing

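None of the 6 genes was called in either comparison under any of the 12 alternatives, with smallest limma adjusted p of 0.518 for FAD against mock and 0.531 for the replicates. Signs near 0 were not stable: 12 of 72 values for FAD and 7 of 72 for the replicates changed sign. The 72 include values that could not change, since the filters, the trend and the block leave the estimate as it is. LHCB4.1 and RCA kept a positive FAD difference under all 12 alternatives, but only the rescalings could have changed its sign. Both FAD signals of these genes lay above both mock signals, so leaving out 1 array or adding 32 keeps the sign. With quantile normalization, median centring and cyclic loess, LHCB4.1 had 0.022, 0.10 and 0.18, and RCA 0.053, 0.073 and 0.15. For FAD, LHCB4.3 was -0.014 with quantile normalization, -0.076 with median centring and -0.0018 with cyclic loess, which was chosen after seeing the data. PRK was -0.022 with quantile normalization and -0.057 with median centring, and LIL3:1 was -0.028 with median centring. With 1 array left out, the FAD value ran from -0.16 to 0.19 for LHCB4.3, from -0.047 to 0.17 for LIL3:1, from -0.10 to 0.010 for SBPASE and from -0.066 to 0.13 for PRK. For the replicates, PRK was -0.00097 with quantile normalization and -0.016 with cyclic loess, LHCB4.1 and RCA were -0.018 and -0.040 with cyclic loess, LIL3:1 was 0.041 with median centring and ran from -0.16 to 0.073 with 1 array left out. The cause of these changes was not tested. Over all tested probe sets, the count lower on FAD, 5, became 0 with no trend, 2 with no filter as well as with the stricter one, 18 with median centring and 1 to 4 with 1 array left out. The count higher on FAD was 0 to 1 with 1 array left out, the 1 arising without mock replicate 1. The replicate block gave 36 calls higher and 153 lower on FAD, and 96 higher and 98 lower on replicate 2. Without FAD replicate 2 the replicate comparison called 8 higher and 31 lower, and 0 without any other single array. No label states what arrays of 1 number have in common, and their deviations from the group means had a correlation of 0.219 over probe sets. A lone array is assumed to vary like the others. The widest 95% interval of a FAD over mock ratio among the 6 genes, that of LHCB4.3, ran from 0.733 to 1.39.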
